A study of Rattus norvegicus with 8 samples.

Results

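The genes described here encode oxidative phosphorylation, measured in the adrenal glands of neonatal rats. They were taken by name from the array's annotation: every symbol that starts with Nduf, Uqcr, Cyc1, Atp5 or any of Sdha to Sdhd (which takes in the Sdhaf assembly factors), and Cox or Coa followed by a number, in either case of letters. That rule, which uses no measured value, found 105 of the 10411 genes with a probe set of their own, on 111 probe sets. Each gene is given at its brightest probe set. By textbook assignment 34 genes encode subunits of complex I, 4 of complex II, 8 of complex III, 18 of complex IV and 15 of complex V, while 25 encode assembly factors or regulators and 1, Cox6c-ps1, is a transcribed pseudogene. A further 7 probe sets matched the rule but carried several symbols and were left out, so Atp5mc1, Atp5mc2, Cox7a2, Uqcrb, Ndufs5 and Ndufa10 are not described.

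The hypoxic group held pups that lived with their dams in 12% O2 from the day of birth until postnatal day 7, and the normoxic group held pups of the same age whose dams stayed in room air and ate freely. Glands were stripped of their capsule, and 24 glands were combined in each of 4 hypoxic and 4 normoxic pools, each read on its own 1-colour array. No strain, sex or genotype is described, and the sources used here do not say how litters and pools relate, so p-values measure the spread between these pools. Each value is a probe set's intensity in arbitrary units, which the authors had scaled to a common mean, so a shift shared by most transcripts cannot be seen. Differences are in log2 units after adding 16, hypoxic minus normoxic, a scale that shrinks the change of a dim probe set. Probe sets for Bacillus genes, which rat RNA should not light, had a median of 5.4 and a highest value of 83.5.

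Oxidative phosphorylation passes electrons along the inner mitochondrial membrane. NADH dehydrogenase (complex I) and succinate dehydrogenase (complex II) hand electrons to ubiquinone, the cytochrome bc1 complex (complex III) passes them to cytochrome c, and cytochrome c oxidase (complex IV) gives them to oxygen. The proton gradient built on the way drives ATP synthase (complex V). In the adrenal cortex the same mitochondria also house the steroid-making enzymes that draw on electrons and cholesterol imported there. Several complex IV subunits exist as alternative isoforms, and Cox4i2 and Ndufa4l2 are known in other tissues as forms that low oxygen can induce.

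The transcripts of the respiratory chain lay close to their normoxic level in hypoxic glands. Of the 105 genes, 101 were bright enough to be tested with limma, and 0 passed after Benjamini-Hochberg adjustment across the 11106 probe sets tested, of which 20 (0.18%) passed. The smallest adjusted p of a member was 0.0796, for the assembly factor Coa7. At an unadjusted limma p under 0.05 there were 5 members of 101, or 4.95%, against 8.64% of all tested probe sets. Of these, 1 measured higher in hypoxic glands (background 4.16%) and 4 measured lower (background 4.48%). Of those 4, Coa7 and Cox7a1 passed the intensity filter only through their normoxic pools, so their presence in the count is no support for it. The median log2 difference was -0.014 over the members and -0.019 over all tested probe sets, with 47 members above 0 and 54 below.

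The precision of these arrays bounds the changes that could have been missed. The 95% interval of the log2 difference lay inside a 1.5-fold change in either direction for 97 of 101 members, or 96.0%. That was so for 78.9% of all tested probe sets. Bright probe sets are measured more precisely, so subunits with a mean intensity over 1000 were also set beside probe sets of that brightness. All 68 such subunits had an interval inside 1.5-fold, against 91.6% of the 2452 bright probe sets, and 1 of the 68 (1.47%) had an unadjusted p under 0.05, against 10.4%. The median size of a member's difference was 0.084 log2, where the median over all tested probe sets was 0.11. At a mean over 1000 these medians were 0.074 for subunits and 0.096 for probe sets.

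**Figure D1:**
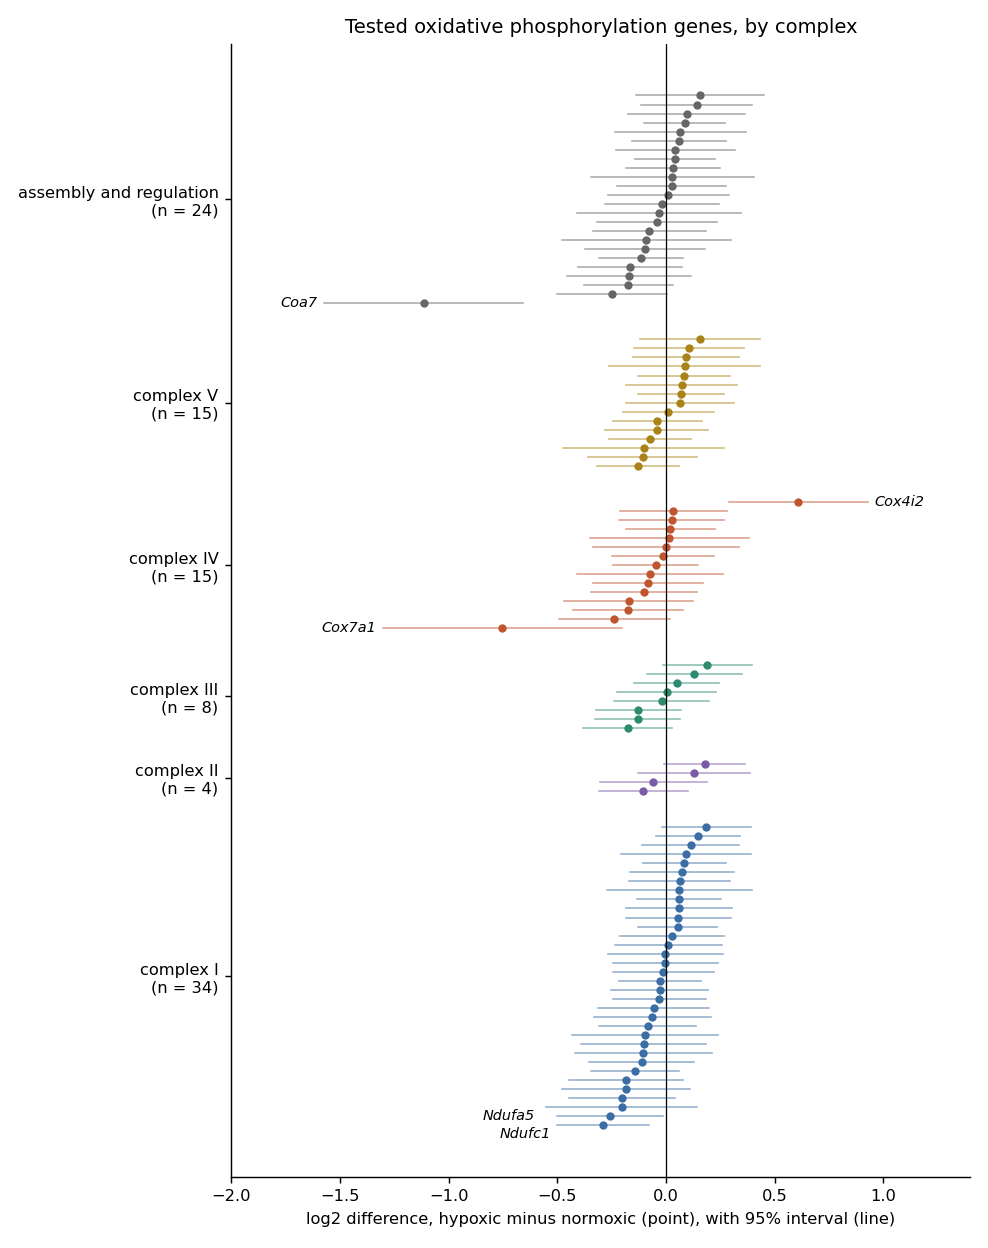
The log2 difference, hypoxic minus normoxic, of 100 tested oxidative phosphorylation genes (points) with its 95% interval (lines), grouped by complex and sorted within it, with the pseudogene left out. Names mark genes with an unadjusted p under 0.05: Coa7 at -1.12, Cox7a1 at -0.75, Ndufc1 at -0.29 and Ndufa5 at -0.26 lie left of 0 and Cox4i2 at 0.61 lies right of it, while the rest crowd around 0.

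Markers of the cells in the gland frame these values. Genes of the adrenal cortex (6 of 8 listed were measured, among them Star, Cyp11a1 and Cyp21a1) were bright in both groups, with a median log2 difference of 0.020. The 8 measured chromaffin cell genes all had a positive difference, with a median of 0.30, and Slc18a2, the vesicular monoamine transporter, passed the test (adjusted p = 0.0318 by limma). Summed brown fat and adipocyte genes ranged from 4737.7 to 13562.7 in normoxic pools and from 3872.5 to 10168.1 in hypoxic pools, highest in normoxic pools 1 and 4. All 8 tested genes of that list had a negative difference, with a median of -0.17. Of 3 tested erythroid genes, all had a positive difference, with a median of 0.42 and values of 0.20 for Hbb, 0.42 for Alas2 and 0.65 for Slc4a1, whose dimmer probe set had -0.043. Their list summed to 17787.7 to 20622.7 in normoxic and 18570.3 to 28663.7 in hypoxic pools. In pooled tissue, fewer cells of a type and less RNA per cell cannot be told apart, and the part of these cell types in the members' values was not tested.

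Motifs known from nuclear-encoded respiratory genes were more frequent in the promoters of subunit genes than in all promoters. Windows of 300 bases, 250 before and 50 after the annotated start, came from RefSeq (assembly GRCr8), which matched 92 members, 69 of them subunits. They were searched on both strands. The nuclear respiratory factor motif CGCANGCG was in 22 of 69 subunit windows (31.9%) and in 8.23% of all 27457 windows. The ETS family motif CCGGAAG, which the GA-binding protein reads, was in 29.0% against 9.22%, and the YY1 motif AAGATGG was in 27.5% against 7.30%. At least 1 of these 3 motifs was in 46 subunit windows (66.7%) and in 21.6% of all windows. In the 23 windows of assembly and regulation genes the 3 motifs were in 39.1%, 39.1% and 8.70%. The core of the hypoxia response element was searched as ACGTG, in 24.6% of subunit windows against 19.7% of all, and as GCGTG, in 46.4% against 31.1%. A TATA box, TATAAA, was in 11.6% against 14.3%. All windows include genes that do not code for protein. In the 19005 protein-coding windows the nuclear respiratory factor, ETS and YY1 motifs were in 10.5%, 11.2% and 7.58%. There ACGTG was in 20.4%, GCGTG in 35.8% and TATAAA in 13.1%. By complex, the nuclear respiratory factor motif was in 9 of 32 (I), 2 of 4 (II) and 2 of 6 windows (III). It was in 9 of 14 complex V windows and in 0 of 13 complex IV windows. Those of complex IV include the tissue isoforms Cox6a2, Cox6b2, Cox7a1 and Cox8b. A match shows letters in a window, not a bound factor.

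**Figure D2:**
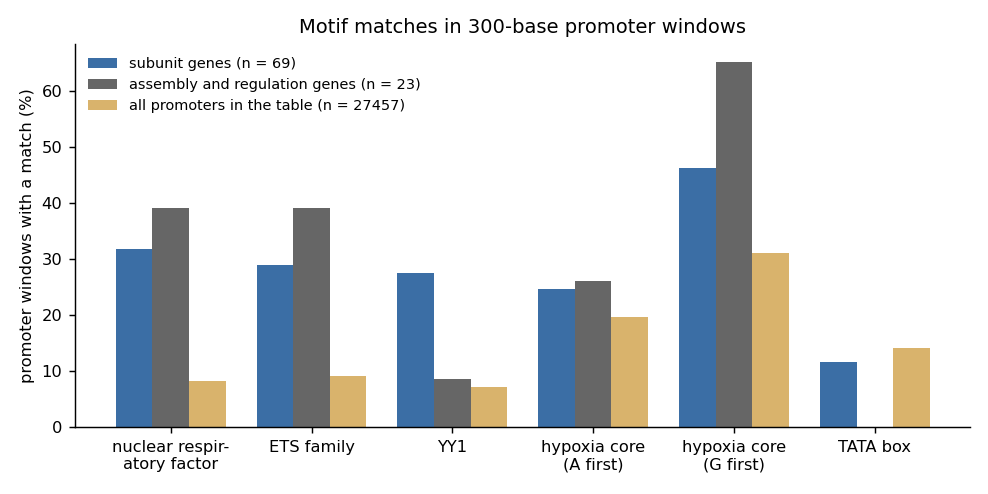
The percentage of 300-base promoter windows with at least 1 match to each motif, for 69 subunit genes, 23 assembly and regulation genes and all 27457 windows of the RefSeq table. The nuclear respiratory factor, ETS and YY1 bars stand at 31.9%, 29.0% and 27.5% in subunit genes. They are under 10% in all windows, which include genes that do not code for protein.

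The stretches upstream of the start are shown for 7 members, with each match to any of the 6 motifs in capitals and the rest in lower case, 5′ to 3′ on the gene's strand, in GRCr8 coordinates. Atp5po (chr11:44657484-44657733 on the minus strand) and Uqcrc2 (chr1:184598990-184599239 on the plus strand) are the members of complexes V and III with the highest difference. Cox4i1 (chr19:65630133-65630382 on the plus strand) is the ubiquitous partner of the isoform that measured higher. Coa7 (chr5:128297850-128298083 on the plus strand, 234 bases) is the assembly factor with the lowest adjusted p. Cox7a1 (chr1:94568966-94569215 on the plus strand) and Cox8b (chr1:205408274-205408523 on the minus strand) are muscle and brown fat isoforms, and Cox8a (chr1:213833624-213833873 on the minus strand) is the ubiquitous partner of Cox8b. All but Coa7 are 250 bases. Not shown are the stretches of Ndufc1, with no match, and Ndufa5, with 1 nuclear respiratory factor, 1 ACGTG and 1 GCGTG match.
Atp5po: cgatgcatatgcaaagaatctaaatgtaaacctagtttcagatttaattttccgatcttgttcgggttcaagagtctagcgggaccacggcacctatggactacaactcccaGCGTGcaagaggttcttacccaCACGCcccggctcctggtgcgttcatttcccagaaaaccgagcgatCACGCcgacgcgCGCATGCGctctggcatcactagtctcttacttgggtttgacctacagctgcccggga
Uqcrc2: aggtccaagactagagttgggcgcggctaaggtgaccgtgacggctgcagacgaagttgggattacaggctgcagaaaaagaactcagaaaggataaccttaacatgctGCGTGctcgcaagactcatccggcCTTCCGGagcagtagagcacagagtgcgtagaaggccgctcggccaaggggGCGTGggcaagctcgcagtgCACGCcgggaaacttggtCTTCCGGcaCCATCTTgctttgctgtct
Cox4i1: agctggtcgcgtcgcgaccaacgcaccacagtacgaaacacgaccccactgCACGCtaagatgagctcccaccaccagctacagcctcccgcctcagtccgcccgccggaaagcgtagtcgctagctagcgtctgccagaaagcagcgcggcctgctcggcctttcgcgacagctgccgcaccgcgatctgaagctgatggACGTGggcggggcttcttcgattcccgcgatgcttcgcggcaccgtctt
Coa7: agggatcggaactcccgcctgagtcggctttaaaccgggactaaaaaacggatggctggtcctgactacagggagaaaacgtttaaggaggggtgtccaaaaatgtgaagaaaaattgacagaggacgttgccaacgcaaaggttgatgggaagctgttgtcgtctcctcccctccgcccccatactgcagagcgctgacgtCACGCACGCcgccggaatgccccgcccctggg
Cox7a1: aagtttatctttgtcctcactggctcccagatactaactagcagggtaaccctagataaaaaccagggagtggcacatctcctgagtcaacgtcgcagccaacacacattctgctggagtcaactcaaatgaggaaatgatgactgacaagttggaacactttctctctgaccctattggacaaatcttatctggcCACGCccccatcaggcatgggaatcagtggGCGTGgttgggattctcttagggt
Cox8a: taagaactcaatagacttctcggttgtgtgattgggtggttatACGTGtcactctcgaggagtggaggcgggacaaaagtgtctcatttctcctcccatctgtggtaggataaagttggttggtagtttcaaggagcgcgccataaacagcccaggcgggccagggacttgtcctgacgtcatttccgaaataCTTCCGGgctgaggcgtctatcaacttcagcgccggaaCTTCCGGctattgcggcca
Cox8b: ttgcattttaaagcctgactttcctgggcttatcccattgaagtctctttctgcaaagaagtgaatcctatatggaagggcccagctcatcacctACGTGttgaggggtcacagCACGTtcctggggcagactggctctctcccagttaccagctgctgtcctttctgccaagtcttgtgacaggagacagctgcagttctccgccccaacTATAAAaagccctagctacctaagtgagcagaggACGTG
In Atp5po the capitals are 1 nuclear respiratory factor match and 3 GCGTG matches, and in Uqcrc2 they are 2 ETS matches, 1 YY1 match and 3 GCGTG matches. Cox8a holds 2 ETS matches and 1 ACGTG match. Cox8b holds 1 TATA box and 3 ACGTG matches, and Cox7a1 holds 2 GCGTG matches, with no nuclear respiratory factor, ETS or YY1 match in either stretch. Coa7 has 2 overlapping GCGTG matches, and Cox4i1 has 1 ACGTG and 1 GCGTG match. The stretches of Coa7 and Cox4i1 likewise hold no nuclear respiratory factor, ETS or YY1 match. The shares above were counted in whole 300-base windows, which run past the printed stretches. Counted that way, Cox4i1 also holds an ETS match, Atp5po and Cox8a a YY1 match, and Coa7 an ACGTG match.

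In complex I, the entry point for NADH electrons, 14 subunits measured higher in hypoxic glands and 20 lower, with a median log2 difference of -0.021. The 95% intervals of all 34 lay inside 1.5-fold. The catalytic arm, where electrons leave NADH, differed little: Ndufs1, the largest iron-sulfur subunit, had a difference of 0.11, and Ndufv1, which holds the flavin, had 0.011. Ndufs3, Ndufs7, Ndufs8 and Ndufv2, further core subunits of that arm, had 0.053, 0.058, -0.0029 and 0.073. The largest differences were in small accessory subunits.

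Ndufc1, an accessory subunit of the membrane arm, read 3521.3, 3909.7, 3280.2 and 3711.2 in normoxic pools 1 to 4 and 2745.3, 2684.3, 3212.0 and 3167.6 in hypoxic pools 1 to 4. Every hypoxic pool lay below every normoxic pool. The log2 difference was -0.29 (SE 0.097, 95% interval -0.50 to -0.077; adjusted p = 0.400 by limma). Such separation of the groups, in either direction, was seen for 5 members (4.95%) and for 5.39% of all tested probe sets.

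Ndufa5, an accessory subunit of the arm that reaches into the matrix, read 778.4, 804.4, 774.7 and 849.8 in normoxic pools and 611.1, 580.1, 707.8 and 788.9 in hypoxic pools. Hypoxic pool 4 lay within the normoxic range and the other 3 lay below it. The difference was -0.26 (SE 0.11, 95% interval -0.50 to -0.015; adjusted p = 0.547 by limma). At the other end stood Ndufb7, a membrane arm subunit. It read 1988.2, 2021.9, 2016.6 and 2106.4 in normoxic and 2244.7, 2105.7, 2677.7 and 2265.0 in hypoxic pools, a difference of 0.19 (95% interval -0.018 to 0.39). The groups overlapped at a single pair of pools, hypoxic 2 and normoxic 4.

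Complex II, which oxidises succinate and is also an enzyme of the citric acid cycle, had 2 subunits with positive and 2 with negative differences, and 0 of 4 reached an unadjusted limma p under 0.05. The catalytic subunits had differences of 0.13 (Sdha, the flavoprotein) and 0.18 (Sdhb, the iron-sulfur protein), and the membrane anchors had -0.10 (Sdhc) and -0.058 (Sdhd). Without normoxic pools 1 and 4, Sdha had -0.046 and Sdhd had 0.039, so neither sign held with both pools left out. For Sdhd that fit keeps normoxic pool 2, which was low at 2468.3. With any 1 pool left out both signs held, at 0.044 to 0.19 for Sdha and -0.16 to -0.017 for Sdhd. Sdhb read 4879.2, 5335.2, 4850.5 and 4557.0 in normoxic and 5735.9, 5218.8, 5791.6 and 5446.3 in hypoxic pools. Normoxic pool 2 lay above hypoxic pool 2, and the other normoxic pools lay below all hypoxic ones (adjusted p = 0.608 by limma). A dimmer probe set for Sdhd had a difference of -0.077. No test of catalytic against anchor subunits was made.

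Complex III had 4 subunits on either side of 0, a median difference of -0.0083 and 0 of 8 with an unadjusted limma p under 0.05. That median ran from -0.055 to 0.038 with any 1 pool left out, lowest without hypoxic pool 4 and highest without hypoxic pool 2. Uqcrc2 and Uqcrc1, the core proteins that brace the complex on its matrix side, had 0.19 and 0.13. Uqcrc2 read 4224.6, 4043.6, 4407.0 and 4546.6 in normoxic and 5633.2, 4925.0, 4652.1 and 4498.0 in hypoxic pools, so 3 of 4 hypoxic pools lay above the normoxic range. The redox subunits had smaller differences, 0.049 for Uqcrfs1, the Rieske iron-sulfur protein, and -0.020 for Cyc1, cytochrome c1. Uqcrq, a small subunit near the ubiquinone site, was lowest at -0.18. It read 3640.6, 3749.1, 3257.0 and 3681.9 in normoxic and 2865.0, 3013.4, 3462.0 and 3348.7 in hypoxic pools, and hypoxic pools 3 and 4 lay inside the normoxic range.

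Complex IV, where electrons meet oxygen, held both the highest and the lowest differences of the tested subunits. The lowest, Cox7a1, passed the intensity filter only through its normoxic pools, so that rank is no trait of the complex. The catalytic core of complex IV did not show such differences. COX1 and COX2, encoded by mitochondrial DNA, had differences of -0.074 and 0.00096. Both ranged widely between pools: COX1 read 10695.6, 14572.5, 13474.7 and 13921.4 in normoxic and 13853.4, 9590.0, 15818.9 and 11320.4 in hypoxic pools, lowest in hypoxic pool 2 and normoxic pool 1. Of the 15 tested subunits, 6 measured higher and 9 lower, with a median of -0.048. The nuclear subunits Cox5b and Cox6c, which every tissue uses, had -0.10 and -0.24, and the 95% interval of Cox6c ran from -0.49 to 0.018. Cox5a, at a dim probe set, had -0.17.

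Cox4i2, the isoform of subunit 4 known from lung and from cells in low oxygen, was the member with the largest positive difference. It read 272.2, 303.5, 285.8 and 241.5 in normoxic pools and 364.2, 355.4, 508.7 and 505.8 in hypoxic pools. All hypoxic pools lay above all normoxic ones, which 2.76% of tested probe sets did. The means were 275.8 ± 26.2 and 433.5 ± 85.2 (SD, n = 4), and the log2 difference was 0.61 (SE 0.15, 95% interval 0.29 to 0.93; adjusted p = 0.204 by limma). Within the hypoxic group pools 3 and 4 stood well above pools 1 and 2.

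Cox4i1, the isoform found in nearly every cell, showed no such separation. It read 8713.4, 10448.8, 9363.0 and 9970.8 in normoxic and 10106.9, 8022.8, 11167.8 and 10322.2 in hypoxic pools, a difference of 0.034 with a 95% interval of -0.21 to 0.28. The change of Cox4i2 exceeded that of Cox4i1 by 0.57 log2. Per pool, the log2 ratio of Cox4i2 to Cox4i1, set to 0 at the normoxic mean, was 0.13, 0.014, 0.090 and -0.23 in normoxic and 0.31, 0.61, 0.63 and 0.74 in hypoxic pools. The ratio was higher in 4 of 4 hypoxic pools than in any normoxic pool. A two-sided exact permutation test gave p = 0.0286, the smallest that 4 against 4 pools can give, and 0.0571 after Benjamini-Hochberg adjustment over the 2 isoform pairs tested.

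**Figure D3:**
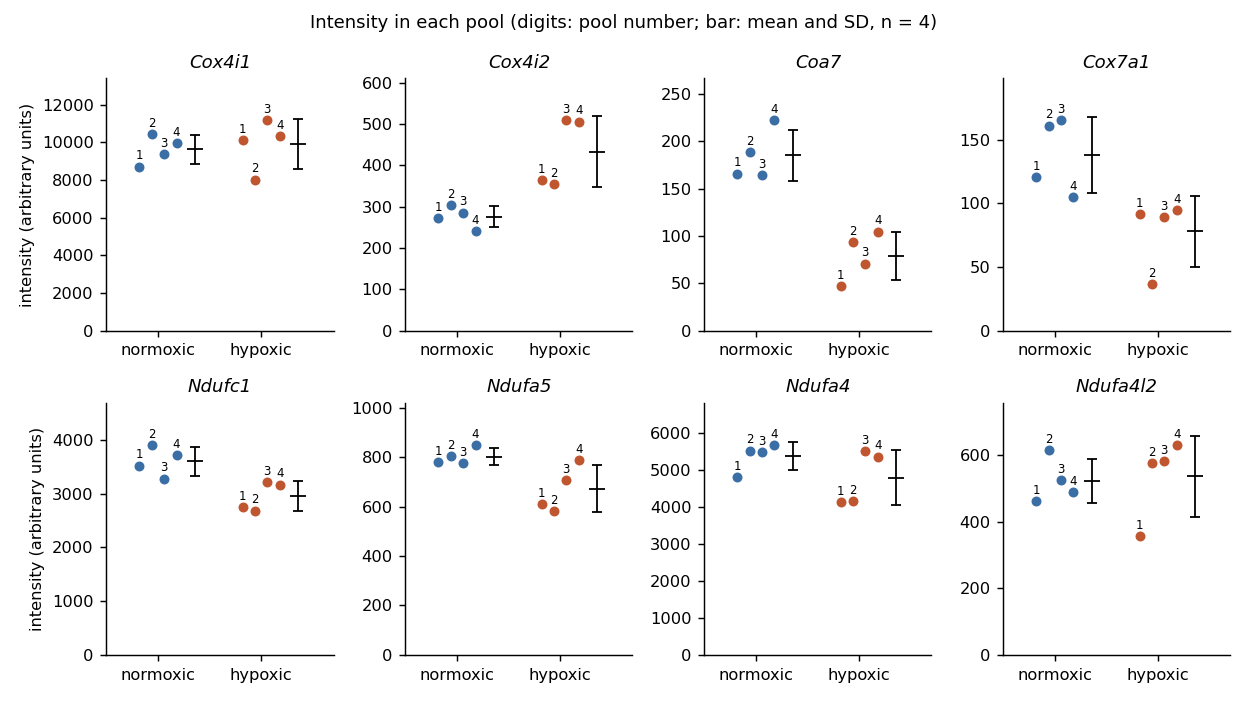
Intensity in arbitrary units of 8 members in each of the 4 normoxic and 4 hypoxic pools (points, numbered by pool), with the mean and SD of each group (bars), each panel on its own axis from 0. Cox4i2 in hypoxic pools (355.4 to 508.7) and Coa7 (47.0 to 104.5) lie wholly above and wholly below their normoxic pools, while Cox4i1, Ndufa4 and Ndufa4l2 overlap.

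The second tested pair was Ndufa4, a complex IV subunit first assigned to complex I, and its paralog Ndufa4l2, known elsewhere as a target of hypoxia-inducible factor. Ndufa4l2 read 462.5, 616.2, 524.9 and 489.6 in normoxic and 358.3, 577.1, 582.4 and 632.0 in hypoxic pools. The hypoxic pools held both the lowest and the highest value, and the difference was 0.014 with a 95% interval of -0.35 to 0.38. Ndufa4 had -0.18. The paralogs' changes differed by 0.19, which the exact permutation test did not separate from 0 (p = 0.286, adjusted p = 0.286). Cox4i2 and Ndufa4l2, the members best known for induction by low oxygen, thus had differences of 0.61 and 0.014 in the same pools, which were not tested against each other.

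The muscle-type isoforms were dim. Cox7a1, the heart, skeletal muscle and brown fat form of subunit 7a, was just above the intensity filter, with a mean of 108.1 over all pools where the filter stood at 95.2. It read 120.8, 161.2, 165.3 and 105.2 in normoxic and 91.6, 36.7, 89.1 and 94.8 in hypoxic pools. All 4 hypoxic values lay below the filter, so the gene was tested only because its normoxic pools were higher, and its fit is a description. All hypoxic pools were below all normoxic ones, which held for 2.64% of tested probe sets. The difference was -0.75 (SE 0.25, 95% interval -1.30 to -0.20; adjusted p = 0.399 by limma), and it was -0.49 without hypoxic pool 2. Without normoxic pools 1 and 4, where brown fat genes were highest, it was -0.99.

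Cox8b, the muscle and brown fat form of subunit 8, lay just outside the filter with a mean of 89.3 and was not tested. It read 268.9, 29.8, 19.9 and 315.0 in normoxic and 27.7, 12.2, 28.2 and 12.4 in hypoxic pools, so only normoxic pools 1 and 4 stood above the range of the bacterial controls. The same pools were the highest of all 8 for Ucp1, the uncoupling protein of brown fat, at 1675.2 and 1820.3 against 92.3 to 510.7 in the other 6. They were also highest for Cidea, a lipid droplet protein of brown fat, at 2202.4 and 1707.4. Of the 8 tested fat genes, Cfd and Lpl had the same order, while Fabp4, Plin1, Lipe and Pparg read higher in at least 1 hypoxic pool than in 1 of these normoxic pools. The log2 difference of Cox8b was -1.66 with all pools and -0.20 without normoxic pools 1 and 4. Its ubiquitous partner Cox8a had -0.048.

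**Figure D4:**
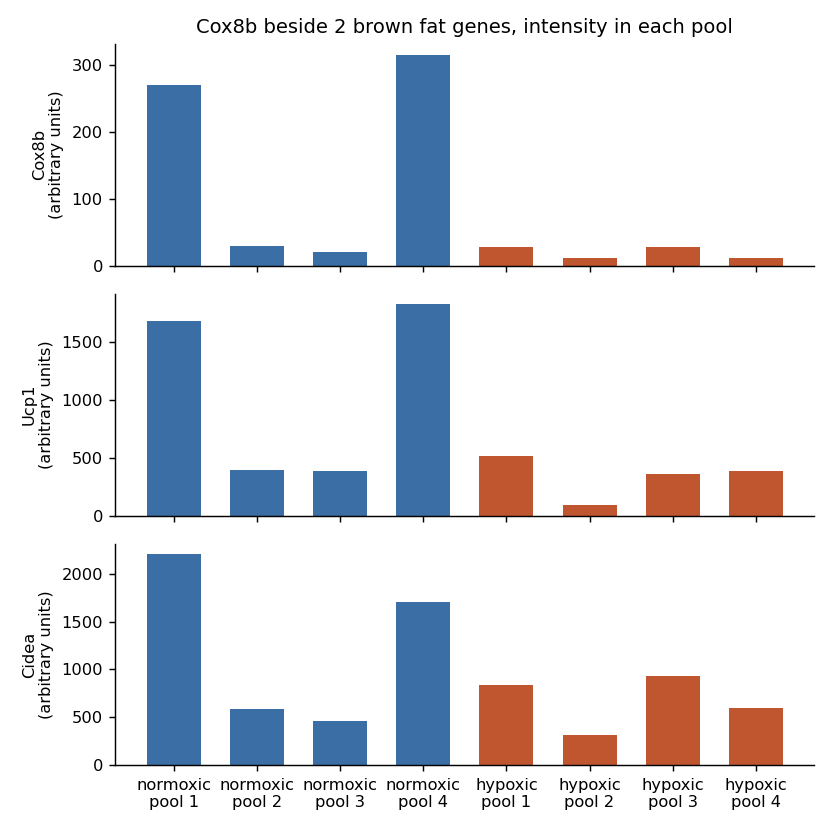
Intensity in arbitrary units of Cox8b, Ucp1 and Cidea in each of the 8 pools (bars from 0, blue normoxic, orange hypoxic). In all 3 panels normoxic pools 1 and 4 are the tallest, with Cox8b at 268.9 and 315.0 there and at most 29.8 elsewhere.

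The remaining isoforms gave little. Cox6a2, the muscle form of subunit 6a, read 4.3 to 16.7, and Cox6b2, the testis form of subunit 6b, read 15.9 to 53.6, both within the range of the bacterial controls in every pool. Their ubiquitous partners Cox6a1 and Cox6b1 were bright, with differences of -0.084 and 0.020. Of the 8 pairs listed, 3 had a member below the filter and 3 had a member with no probe set of its own. Most striated muscle genes were dim as well: 3 of 13 measured passed the filter. Of these, Myh1 was bright, with a mean of 3851.6 over all pools, while Tnni2 and Ckm had 170.5 and 129.1.

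Complex V, the ATP synthase, had 9 of 15 subunits above 0 and a median of 0.063, and 0 reached an unadjusted limma p under 0.05. With any 1 pool left out that median ran from 0.010 to 0.077, lowest without hypoxic pool 3, and it was 0.0027 without normoxic pools 1 and 4. The catalytic head was represented by Atp5f1a at 0.092 and Atp5f1b at 0.11. Genes of the central stalk that turns inside it were Atp5f1c at 0.084, Atp5f1d at 0.087 and Atp5f1e at -0.074. Atp5po, a protein of the peripheral stalk that joins head and membrane, was highest at 0.16. It read 4725.0, 4548.0, 3560.5 and 4341.5 in normoxic and 5656.6, 3864.1, 4873.0 and 4815.7 in hypoxic pools, and hypoxic pool 2 lay among the normoxic ones. Atp5mc3, a gene for the proton-carrying ring, had 0.063. Atp5mk, a small membrane subunit, was lowest at -0.13. Atp5me had -0.10 at its bright probe set and -0.47 at a dim one (adjusted p = 0.582 by limma), so its probe sets disagree in size.

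The assembly factors and regulators, which build the complexes but are not part of them, split evenly, 12 above and 12 below 0 of 24 tested, with a median of -0.0037. Coa7, a protein of the intermembrane space needed to assemble complex IV, had the largest difference. It read 165.8, 188.4, 164.0 and 222.0 in normoxic and 47.0, 93.7, 70.8 and 104.5 in hypoxic pools, so the highest hypoxic pool lay well below the lowest normoxic one. The means were 185.1 ± 27.0 and 79.0 ± 25.5 (SD, n = 4). The log2 difference was -1.12 (SE 0.21, 95% interval -1.57 to -0.66; adjusted p = 0.0796 by limma). The probe set is dim: 3 of 4 hypoxic pools lay below the filter signal of 95.2 and 2 of them below the brightest bacterial control. Coa7 therefore entered the test only through its normoxic pools, and its fit is likewise a description. With normoxic pools 1 and 4 left out, the pools richest in brown fat genes, its difference was -1.06.

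Other assembly genes differed less. Ndufaf8 and Ndufaf5, assembly factors of complex I, had -0.25 and 0.16, both with an interval that reached past 0. Atp5if1, the inhibitor that stops ATP synthase from running backwards, had -0.17. It read 1738.2, 1753.5, 1668.3 and 2068.5 in normoxic and 1649.2, 1500.5, 1629.9 and 1604.7 in hypoxic pools, with no overlap, though its 95% interval, -0.38 to 0.030, held 0. The complex IV factors Coa3, Cox14, Cox15, Cox16 and Cox17 ranged from -0.17 to 0.086. Cox11, a copper chaperone of complex IV, was below the filter and read 15.4 to 77.6. The dim second probe set of Sdhaf2, a complex II factor, had 0.74 untested, where its bright one had -0.035.

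Genes around the chain were read from lists of textbook members. Of 20 measured assembly factors with other names, such as Surf1, Bcs1l and Oxa1l, 0 reached an unadjusted limma p under 0.05, and the lowest p was that of Uqcc1, which had a difference of 0.26 at its brightest probe set and -0.24 at another. The 8 genes for adenine nucleotide exchange, phosphate import, outer membrane channels and uncoupling gave 0 as well, with a median of 0.046. Of 12 tested genes that feed ubiquinone by other routes or make it, 1 did: Coq9, a lipid-binding protein of ubiquinone synthesis. Coq9 read 1786.4, 1725.9, 1607.9 and 1540.7 in normoxic and 2299.6, 2067.4, 2289.9 and 1957.7 in hypoxic pools, all of them above the normoxic range. Its difference was 0.37 (adjusted p = 0.219 by limma), and a dim second probe set had -0.16. In the citric acid cycle 1 of 14 reached that p, Mdh2, malate dehydrogenase, at 0.27. These shares, 8.33% and 7.14%, are near the 8.64% of all tested probe sets and are no result about either list.

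Regulators of mitochondrial biogenesis and upkeep had 5 of 11 tested genes (45.5%) at an unadjusted limma p under 0.05, against 8.64% of all tested probe sets, with 4 higher (background 4.16%), 1 lower (background 4.48%) and a median difference of 0.0036. Higher in hypoxic glands were Lonp1 and Clpp, proteases of the matrix, at 0.37 and 0.25, Phb2, a scaffold of the inner membrane, at 0.20, and Polg, the mitochondrial DNA polymerase, at 0.29. Lower was Ssbp1, which coats single-stranded mitochondrial DNA. Ssbp1 read 559.6, 477.1, 547.6 and 573.8 in normoxic and 370.8, 323.7, 473.5 and 362.1 in hypoxic pools, with no overlap (2.64% of tested probe sets in that direction), a difference of -0.49 (adjusted p = 0.234 by limma). None of the 5 passed adjustment, and a dimmer probe set of Polg had -0.55. Tfam, which packs mitochondrial DNA, had -0.065.

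Averaged over a complex, after centring every gene on its mean, the groups differed by -0.033 log2 for complex I, 0.036 for II, -0.010 for III, -0.064 for IV and 0.016 for V. Each of these was smaller than the SD between pools of either group, which ran from 0.045 to 0.18. Assembly and regulation genes differed by -0.066, more than their SDs of 0.055 in normoxic and 0.054 in hypoxic pools. That mean includes Coa7 at -1.12, the median of the class was -0.0037, and the difference was not tested. Hypoxic pool 2 was lowest for complexes I, III, IV and V, at -0.13, -0.10, -0.27 and -0.13 log2. It held the lowest value of all 8 pools for 29 of 101 members, followed by normoxic pool 3 with 18. Complex II was the exception, at -0.017 there. The other hypoxic pools stood at -0.082, 0.13 and 0.091 for complex IV.

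**Figure D5:**
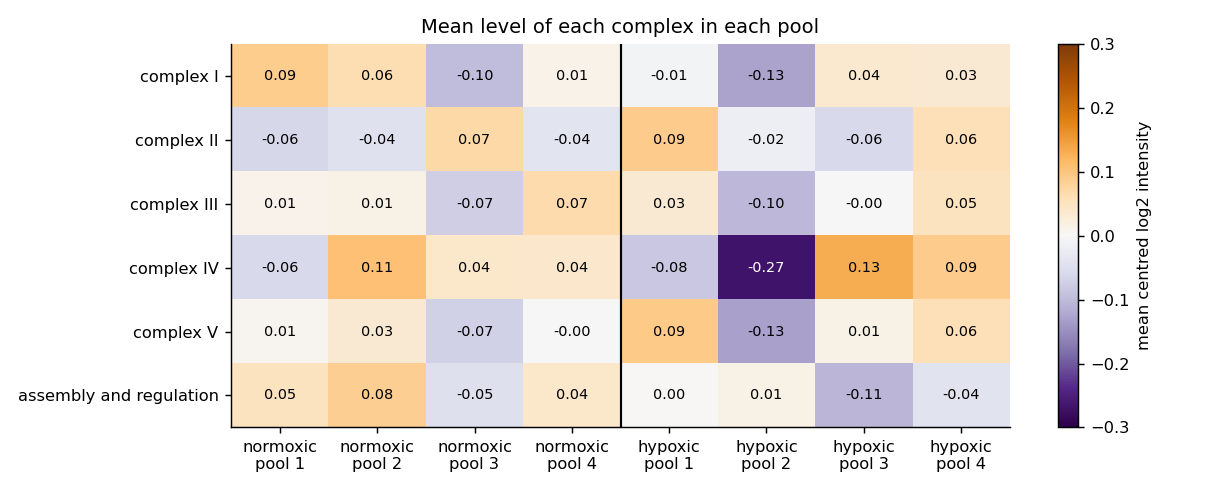
Mean log2 intensity of the tested members of each complex in each pool, each gene first centred on its mean over the 8 pools, with normoxic pools left of the line and hypoxic pools right of it. The deepest cell is complex IV in hypoxic pool 2 at -0.27, and no row changes sign as a whole at the line.

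The brightest members varied with the arrays. The 9 members with a mean over 8000, among them COX1, COX2, Atp5f1b and Cox4i1, averaged -0.16 in normoxic pool 1 and -0.27 in hypoxic pool 2 and between 0.011 and 0.14 in the other 6. On those 2 arrays the level passed by the brightest 1 in 1000 probe sets was 14810 and 14291, against 17343 to 19546 on the others. Without both, the median difference of complex I was 0.070 in place of -0.021, and the part of the array's bright end in the members' values was not tested further.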

How the data were processed

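RNA of 8 pools was labelled with biotin and hybridised to 1-colour arrays, 1 pool each. What the authors deposited is a linear intensity for every probe set, 1 column per pool per the labels; the sources used here do not name the software that summarised the probes. Intensities were raised to at least 1, 16 was added and the log2 was used. The array medians lay within 0.117 log2 of each other, so no further normalization was made. A filter at the 30th percentile of mean log2 intensity (a signal of 95.2) kept 11106 probe sets. The groups of 4 pools were then set against each other in limma 3.58.1 (lmFit, eBayes with trend, two-sided) in R 4.3.3. P-values were adjusted by Benjamini-Hochberg across every tested probe set, with 0.05 as the threshold. Tables and plots used Python 3.11.15, pandas 2.3.3 and matplotlib 3.10.9. The fit was tested on simulated data.

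Of 15866 probe sets, 12783 had 1 symbol, 312 several and 2771 none; 102 of the 105 member genes had their gene ID in the RefSeq table. Genes were named if their unadjusted p was under 0.05, if highest or lowest of a complex, if in an isoform pair, if in a fixed panel of core subunits or if lowest in p of a list; others named beside them (such as Ndufaf8, Cox6c, Ndufs3 and Atp5f1c to Atp5f1e) were chosen after their values were seen. The members, lists and tests were chosen with earlier results of these data known. The number of arrays limits the precision.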

Additional observations from a re-analysis of the deposited data

Results flagged for a closer look

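Single pools stood far from the other 3 of their group, by Dixon's 95% criterion, for 6 of the named members, over 68 groups of 4 pools examined. Chance flags about 1 in 20 groups and no cause was tested. Cox7a1 in hypoxic pool 2, at 36.7, lay below the other hypoxic pools, and without that pool its difference was -0.49 in place of -0.75. Sdhd in normoxic pool 2 was low at 2468.3, and Ndufs1 in hypoxic pool 1 was high at 1294.6. Cox6a1 in normoxic pool 3 was low at 4756.8. Cox6b1 and Cox8a were both low in normoxic pool 1, at 3473.1 and 9227.8.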

How the results depend on the processing

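Direction was kept by Coa7, Cox4i2, Cox7a1, Ndufc1 and Ndufa5 under every alternative run (Coa7 and Cox7a1 are dimmer than the 50th percentile filter). Alternatives included offsets of 1 and 64, no filter, no variance trend, quantile normalization and averaged probe sets. Also run were covariates for brown fat genes or the Gapdh 5′ to 3′ ratio, and each pool left out. These genes were picked by their p in the same data, so a kept direction is no support for them. For all but Ndufa5 the groups did not overlap, so another offset or a pool left out could not reverse the sign. For Coa7 the adjusted p by limma ranged from 0.0371 to 0.432. The count of members past adjustment was 0 under each alternative but 1, the replicate block, which called Coa7 (adjusted p = 0.0371 by limma). Replicate numbers gave a mixed picture of pairing: same-numbered pools correlated at 0.32, 0.0026, 0.19 and -0.043. The same-numbered hypoxic pool was the best match of normoxic pools 1 and 3, but not of 2 and 4. Whether the numbers mark pairs is not stated in the labels. The count at an unadjusted p under 0.05, mainly 5, was 3 with the 50th percentile filter, 8 with quantile normalization, 4 to 8 with a pool left out (8 without hypoxic pool 3) and 3 without normoxic pools 1 and 4. Leaving out pools by brown fat or bright-end signal was chosen after seeing the data. The Cox4i2 to Cox4i1 difference was 0.50 to 0.66 with a pool left out, with an exact permutation p of 0.0571 in 3 of 8 cases, and 0.57 (p = 0.125, the smallest that 4 pairs allow) with the replicate block. With a pool left out, medians ran from -0.071 to 0.031 for assembly factors, -0.061 to 0.024 for complex I, 0.010 to 0.077 for II and -0.084 to 0.0016 for IV, and that of complex I was 0.070 without the arrays low at the bright end. Of 31 named members, 13 changed sign in some alternative, with main differences of up to 0.16 (Ndufaf5). With quantile normalization these were Cox6b1 (-0.030) and Ndufv1 (-0.015), with the brown fat covariate Cox6b1 (-0.015) and Ndufa4l2 (-0.081), and with the Gapdh covariate Cyc1 (0.041), Ndufa4l2 (-0.042) and Sdhd (0.032). Without the low bright-end arrays they were Cox6a1 (0.013), Cox6b1 (-0.016), Cyc1 (0.0079) and Ndufa4l2 (-0.084). Without normoxic pools 1 and 4 they were Atp5f1a (-0.012), Atp5mc3 (-0.044), Cox4i1 (-0.0085), Cox6b1 (-0.031), Ndufa4l2 (-0.11), Ndufaf5 (-0.033), Sdha (-0.046) and Sdhd (0.039). With a pool left out the ranges were -0.027 to 0.13 for Cox4i1, -0.042 to 0.059 for Cox6b1, -0.072 to 0.19 for Ndufa4l2, -0.048 to 0.10 for Ndufv1, -0.086 to 0.030 for Cyc1, -0.0050 to 0.079 for Uqcrfs1 and -0.088 to 0.0016 for Cox8a. The cause of these shifts was not tested.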
